A study of Mus musculus with 4 samples.

Results

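The exosome fraction of 3T3-L1 cells carried both mature arms of miR-574 on each of the 4 days measured. From D0 to D4 the signals of the 2 arms changed by unequal factors. The change of mmu-miR-574-5p from D0 to D4 was 0.458 ± 0.058 times that of mmu-miR-574-3p, a quotient from which any factor common to an array drops out. Without scaling between arrays, miR-574-5p was at 1.40 ± 0.14 times its D0 signal on D4 but below D0 under each of 6 scalings, at 0.328 to 0.767. This unscaled direction is the opposite of the one the study gives for that arm. Without scaling, miR-574-3p was at 3.05 ± 0.22 times D0 on D4, but at 0.717 to 1.67 under the 6 scalings. Of these, 3 were below 1, 2 of them (the quantile normalizations) at 0.991 ± 0.072 and so within 1 error of D0. The value after ± is the within-array error of the software, with n = 1 array per day, so no difference between days was checked in a replicate. From D4 to D16 the arms kept the same relation to each other, with a ratio of their changes of 1.00 ± 0.13. The members were found by name, as the 2 mature arms out of the 1881 miRNAs on the array. The pair was chosen by their array signals in these same data, so their ratios to D0 are given as a description and no test is attached to them.

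The 3T3-L1 line is made of mouse fibroblast-like cells that become adipocytes when given insulin, dexamethasone and 1-methyl-3-isobutylxanthine. Vesicles were pelleted by ultracentrifugation from the medium of unmodified cells on D0, in low-glucose growth medium, and at 4, 12 and 16 days after the switch to high-glucose medium, which held all 3 agents for the first 2 days and insulin alone of the 3 afterwards. All media contained 10% fetal bovine serum depleted of exosomes, with penicillin and streptomycin. The RNA of each day was pooled over independent experiments and read on 1 single-colour (Cy3) miRNA array. The arrays read miRNAs alone, so no mRNA marker of adipocytes could be looked up on them.

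MicroRNAs are cut from a hairpin transcript whose strands yield a 5p and a 3p mature arm, and either arm can be loaded into Argonaute to repress mRNAs that pair with its seed, bases 2 to 8. The miR-574 hairpin is known as an intronic miRNA of Fam114a1. Its 5p arm is rich in G and U and has been described as a binding partner of CUGBP1, a protein that recognises GU-rich RNA, and as a small RNA found in secreted vesicles. Its 3p arm is rich in C and A, the kind of sequence that the splicing factor hnRNP L recognises.

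The hairpin is shown because both arms hold a short repeat, of U and G in the 5p arm and of C and A in the 3p arm. In the RefSeq table of GRCm38.p6 it lies at chr5:64970318-64970395 on the plus strand. That interval falls inside the annotated spans of Fam114a1 on the same strand and of Tlr6 on the opposite strand. Capitals mark the 5p arm and then the 3p arm.
Mir574: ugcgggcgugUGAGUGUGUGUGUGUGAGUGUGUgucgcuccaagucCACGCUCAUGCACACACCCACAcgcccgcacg

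In the mature arms the capitals mark the seed. The 5p arm, of 23 bases, lies at chr5:64970328-64970350 and the 3p arm, of 22 bases, at chr5:64970364-64970385. Of the bases, 21 of the 5p arm are G or U and 18 of the 3p arm are A or C.
miR-574-5p: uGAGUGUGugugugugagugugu
miR-574-3p: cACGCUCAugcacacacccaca
No other miRNA on the array shared either seed, among the 1608 of the 1881 whose mature sequence is in the RefSeq table. In the predicted fold of the hairpin 20 base pairs joined the 2 arms, 10 of them with a G of the 5p arm opposite a C of the 3p arm, 6 with a U opposite an A, 1 with an A opposite a U, and 3 as G-U wobble pairs.

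Both arms were read far above the detection limit. The software calls a probe detected when its signal exceeds 3 times its error, and both probes of the 5p arm and all 4 of the 3p arm passed on every array. Each arm was printed in 30 spots, and all 30 were well above background on each day, with 0 saturated.

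The total signal of miR-574-5p, the sum over its probes in intensity units, was 119 ± 8.65 on D0, 166 ± 12.0 on D4, 143 ± 10.3 on D12 and 93.0 ± 6.74 on D16. Its order of days was D4, D12, D0 and D16. D4 and D12 differed by 1.45 combined errors, D12 and D0 by 1.81 and D0 and D16 by 2.34, so neighbouring days in that order lay close together. The software multiplies totals by an effective spot size that differs between arrays. With this undone, D12 was below D0, at 0.952 ± 0.098 times, and D4 was at 1.08 ± 0.11 times. The order of days also turned with the scaling. D4 was the lowest 5p day when arrays were scaled to the 75th or 90th percentile of their shared miRNAs or by either quantile normalization.

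The total signal of miR-574-3p was 64.9 ± 3.40 on D0, 198 ± 9.98 on D4, 165 ± 8.33 on D12 and 111 ± 5.62 on D16. In these unscaled signals D0 was the lowest day for the 3p arm, 6.97 combined errors under D16, whereas for the 5p arm D16 was the lowest. Scaled to the 75th percentile of the shared miRNAs, D0 was instead the highest 3p day. Unscaled, D12 and D16 were 5.39 errors apart and D4 and D12 were 2.56 apart. Both distances depend on the processing. With the effective spot size undone, the 3p arm was at 2.35 ± 0.17, 2.01 ± 0.15 and 1.71 ± 0.12 times D0 on D4, D12 and D16. After quantile normalization over all miRNAs it was at 0.991 ± 0.072, 1.05 ± 0.08 and 1.01 ± 0.07 times. These errors cover variation within an array and not that between cultures or arrays.

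**Figure D1:**
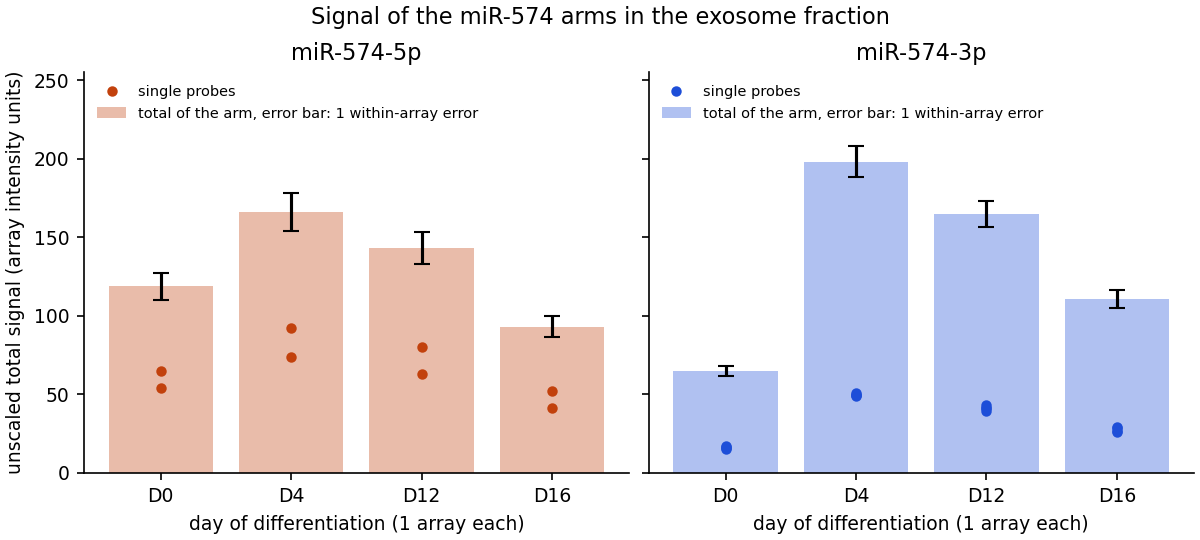
Unscaled signal (intensity units) of miR-574-5p on the left and miR-574-3p on the right on D0, D4, D12 and D16, with bars for the arm total, error bars of 1 within-array error and points for the single probes. Unscaled, the 3p total is lowest on D0, at 64.9, and the 5p total on D16, at 93.0, an order that turned under some scalings.

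Most miRNAs had a higher total signal after D0, on D4 and D12 in part through the effective spot size by which the software multiplies totals. This factor was 0.6 on D0 and D16, 0.780 on D4 and 0.760 on D12. Over the 283 miRNAs detected on all 4 arrays, the median unscaled ratio to D0 was 2.59 on D4, 1.99 on D12 and 1.32 on D16, or 1.37, 1.00 and 0.41 on the log2 scale. The spike-in RNAs, a control of labelling and hybridisation, were brighter than on D0 by 1.82-fold, 1.72-fold and 1.27-fold on the same days. The D0 array, which is the base of every ratio, was also the least even, with a median coefficient of variation between replicate spots of 21.1% against 7.19% to 8.07% on the other arrays. Changes of the arms are therefore given beside the median of all miRNAs and under each scaling.

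At D12, miR-574-3p was at 2.54 ± 0.18 times D0, above the 2-fold limit, as were 49.5% of the miRNAs detected on all 4 arrays, and miR-574-5p was at 1.21 ± 0.12 times. At D16 the ratios were 1.71 ± 0.12 for the 3p arm and 0.783 ± 0.080 for the 5p arm. A 3p ratio above 2 on D12 was thus shared with about as many miRNAs as not.

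Relative to the median of all miRNAs the arms fell on opposite sides of it. The ratio of miR-574-5p was 0.541 times the median on D4, 0.604 times on D12 and 0.592 times on D16. The ratio of miR-574-3p was 1.18, 1.27 and 1.29 times the median on those days. Of the 283 miRNAs, 33 had a lower D4/D0 ratio than the 5p arm, 59 a lower D12/D0 ratio and 49 a lower D16/D0 ratio. For the 3p arm the corresponding numbers were 176, 186 and 178. The 5p arm lay below the middle 50% of the miRNAs on all 3 days, and the 3p arm lay inside it.

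The share of an arm in the detected signal is itself a scaling, to the sum over the miRNAs detected on that array. This sum went from 12716 over 329 miRNAs on D0 to 39129 over 426 on D4. miR-574-3p made up 0.510% of the signal summed over detected miRNAs on D0, 0.506% on D4, 0.532% on D12 and 0.506% on D16. miR-574-5p made up 0.934% on D0 and then 0.425%, 0.462% and 0.425%. The 3p share thus stayed within a narrow range on all days while the 5p share on D0 stood apart from the other days. Shares do not show which arm changed, since the sum they are divided by changed as well.

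The direction of each arm's change depended on the scaling between arrays. The quotient of the arms cannot depend on a factor common to an array, and quantile normalization moved it by less than 1 error. At D12, miR-574-5p was above D0 without scaling (1.21 times) but below it under each of the 6 scalings, at 0.700 with the spike-in RNAs, 0.579 with the 75th percentile of each array's detected miRNAs, 0.520 with the 90th percentile, 0.474 after either form of quantile normalization and 0.366 with the 75th percentile of the 283 shared miRNAs. Under quantile normalization over all miRNAs it passed below the 0.5-fold limit together with 23.3% of the miRNAs, and with the 75th percentile of the 283 shared miRNAs together with 36.4%. In the same settings miR-574-3p was at 1.48, 1.22, 1.10, 1.05 and 0.772 times D0. Apart from the lowest of these, the 3p values were above 1. With the effective spot size undone, the unscaled 5p ratio on D12 was 0.952 ± 0.098.

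The 5p arm was lower relative to the 3p arm, with D0 as the base, in each of the settings tried. Dividing the change of miR-574-5p by that of miR-574-3p removes any factor common to an array. The result was 0.458 ± 0.058 on D4, 0.474 ± 0.060 on D12 and 0.459 ± 0.058 on D16, or -1.13, -1.08 and -1.12 on the log2 scale. Over 13 treatments of the scale, the background and the spots, the quotient ran from 0.425 to 0.560. The percentile, spike-in and spot-size settings return the unscaled quotient by construction. The shared probes were all the probes of the arms, and both quantile normalizations gave the same values. All settings also share the D0 array, so their number is no measure of how firm the quotient is. A quotient of this kind shows unequal change of the arms and not which of them changed.

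**Figure D2:**
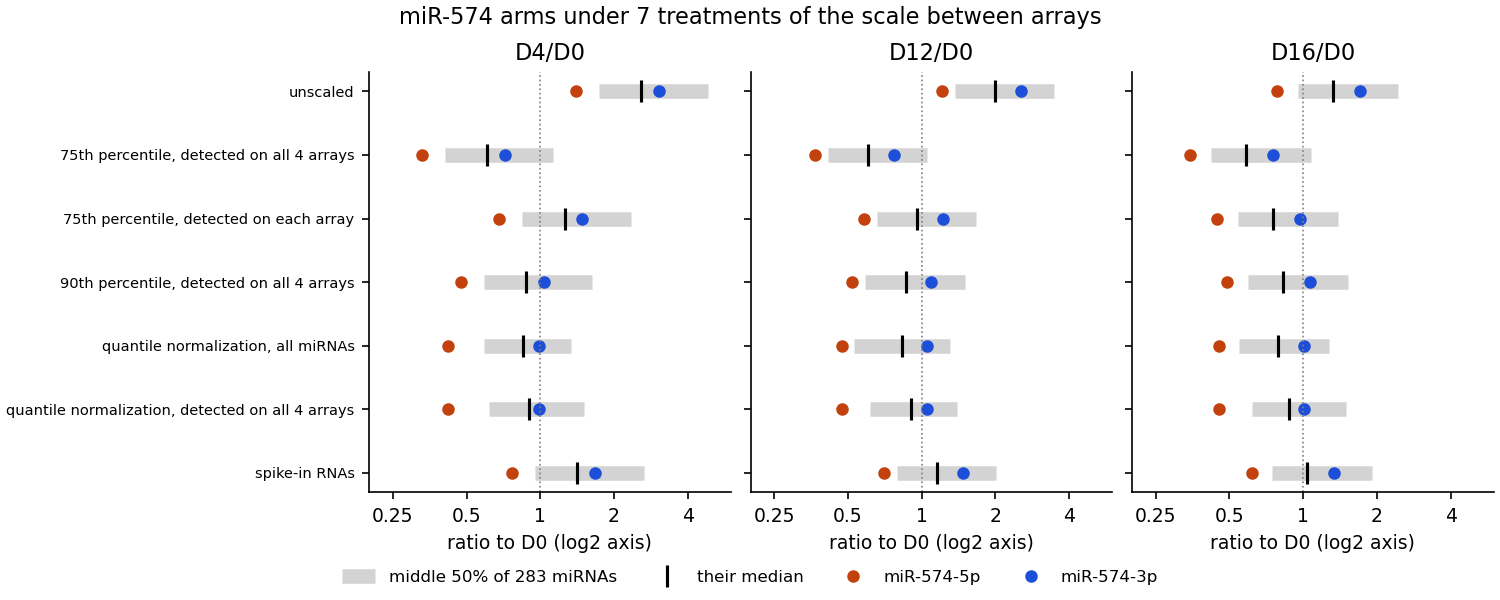
Ratio to D0 (log2 axis) of miR-574-5p (orange) and miR-574-3p (blue) on D4, D12 and D16 under 7 treatments of the scale between arrays, with the middle 50% (grey) and the median (black mark) of the 283 miRNAs detected on all 4 arrays. The whole picture shifts with the treatment, from a median of 1.99 unscaled to 0.606 with the 75th percentile on D12, and the 5p arm lies to the left of the 3p arm in every row. In rows with a single factor per array, the unscaled values fix this order.

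The probes of an arm moved together. The 2 probes of miR-574-5p had ratios to D0 of 1.37 and 1.42 on D4, 1.17 and 1.23 on D12, and 0.765 and 0.799 on D16. The 4 probes of miR-574-3p ranged from 2.86 to 3.24 on D4, from 2.40 to 2.60 on D12 and from 1.57 to 1.79 on D16. On no day did a probe of one arm fall into the range of the other. Probes are repeated readings of the same RNA, and a difference of this size was common among the hairpins compared below.

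The unevenness of the D0 array reached both arms. When the columns of the array were split into 3 parts, spots of miR-574-5p in the left part were at -0.24 (median log2 of spot over probe median) and those in the right part at 0.30. For miR-574-3p these values were -0.45 and 0.15. Of the 30 spots of each arm, 12 of the 5p arm and 9 of the 3p arm were on the left. Dividing each spot by a position effect estimated from all other miRNAs gave a quotient of the arms of 0.441 on D4, 0.459 on D12 and 0.445 on D16.

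Spots at the same place of the layout were also compared directly between arrays. For miR-574-5p the spot signal over that on D0 ran from 0.779 to 1.67 on D4, with a median of 1.17. For miR-574-3p it ran from 1.77 to 3.36, with a median of 2.21. The lowest 3p spot thus lay above the highest 5p spot. Spot signals, unlike the totals, are not multiplied by the effective spot size of the software, which was 0.780 on D4, 0.760 on D12 and 0.6 on D0 and D16.

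At D12 the spot ratios again did not overlap, with a highest value of 1.35 for miR-574-5p and a lowest of 1.60 for miR-574-3p. At D16 10 of the 30 spots of the 5p arm lay above the lowest spot of the 3p arm, which was at 0.839. Without spots that the software marked as outliers on any array, which left 27 for each arm, the lowest 3p spot on D16 was at 1.31 and the highest 5p spot at 1.11. Spots are repeated readings of the same RNA and not replicates of a day. Whether the spots of the arms of other hairpins also stay apart was not tested. Differences of this size between arms were common among the hairpins compared below, so the separation of the spots is not shown to be particular to miR-574.

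**Figure D3:**
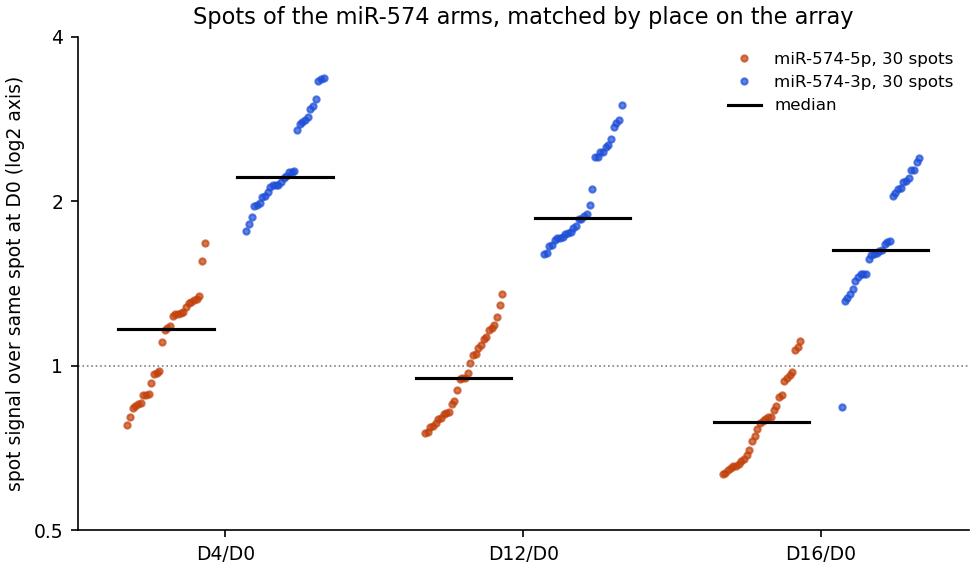
Signal of each spot divided by that of the same spot on the D0 array (log2 axis) on D4, D12 and D16, with 30 spots of miR-574-5p (orange) and 30 of miR-574-3p (blue) sorted by value and a bar at each median. The clouds are apart on D4 and D12, and on D16 they meet through a single 3p spot at 0.839. Spots of other hairpins were not compared.

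When the D0 array was left out, the arms differed by less than their errors. From D4 to D12, miR-574-5p went to 0.862 ± 0.088 times and miR-574-3p to 0.832 ± 0.059 times, beside a median of 0.843 for the 283 miRNAs. From D12 to D16 the ratios were 0.650 ± 0.066 and 0.671 ± 0.048, beside a median of 0.695. The quotient of the arms was 1.04 ± 0.13 from D4 to D12 and 0.968 ± 0.121 from D12 to D16. The unequal change of the arms therefore rests on the single D0 array.

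A hairpin whose arms changed by unequal factors was common on these arrays. Both arms were detected on all 4 arrays for 25 hairpins, miR-574 included. The 5p arm changed by less than 0.5 times the change of the 3p arm in 44% of them on D4, in 64% on D12 and in 52% on D16, and miR-574 was among them each time. Ordered from the most negative difference on D12, miR-574 was at place 16 of 25. The size of its difference was thus not unusual for the arrays.

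The widest differences on D12 were much larger, at -3.43 on the log2 scale for miR-7005, -2.94 for miR-669b and -2.83 for miR-669l. In the other direction they were 4.46 for miR-125a, 3.24 for miR-211 and 2.22 for let-7g, a member of the let-7 family that restrains growth genes. How level the difference of miR-574 stayed was looked at after the values were seen. It varied by 0.05 on the log2 scale over D4, D12 and D16, the smallest range of the 25 hairpins, followed by let-7b at 0.06 and miR-7058 at 0.08. The within-array error of each difference of miR-574 was 0.18, so ranges this small cannot be ordered.

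**Figure D4:**
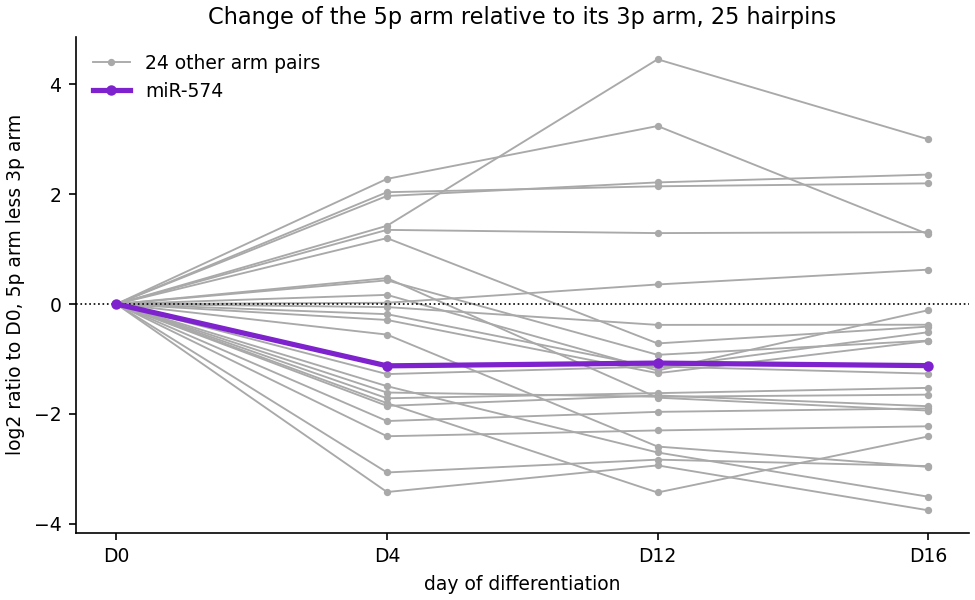
Log2 ratio to D0 of the 5p arm less that of the 3p arm, for 25 hairpins with both arms detected on all 4 arrays, on D0, D4, D12 and D16. The line of miR-574 (purple) drops to -1.13 on D4 and then stays level, inside the range of the other pairs (grey).

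The miRNAs whose course was most like that of each arm were then listed, by the Euclidean distance between log2 ratios to D0 on D4, D12 and D16, over the 282 other miRNAs detected on all 4 arrays. For miR-574-5p they were miR-1187 at a distance of 0.097, miR-669n at 0.107, miR-3082-5p at 0.187, miR-706 at 0.254 and miR-669e-5p at 0.263. For miR-574-3p they were miR-466q at 0.027, miR-466f-3p at 0.063, miR-466g at 0.083, miR-466h-3p at 0.096 and miR-6973a-3p at 0.101. miR-466 and miR-669 are large families of mouse miRNAs that come mostly from an intron of Sfmbt2. Not all members do. In the RefSeq table miR-669n and miR-466q lie on chromosome 3, and miR-466i-3p, which is outside these lists, lies on chromosome 13.

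Of the 5 miRNAs nearest to miR-574-5p, 3 held a repeat like that of the arm, and their sequences are shown for that reason. The sequence of miR-669e-5p was not used here. In the next lines capitals mark the longest stretch of alternating U and G.
miR-574-5p: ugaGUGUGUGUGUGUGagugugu
miR-1187: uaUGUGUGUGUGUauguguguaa
miR-669n: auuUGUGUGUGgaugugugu
miR-3082-5p: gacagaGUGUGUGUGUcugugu
The stretch was 13 bases long in miR-574-5p, 11 in miR-1187, 8 in miR-669n and 10 in miR-3082-5p. miR-706, the fourth in the list, is without such a repeat (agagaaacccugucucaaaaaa).

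Of the 5 miRNAs nearest to miR-574-3p, miR-466q held the repeat, and the sequences of miR-466f-3p, miR-466g and miR-466h-3p were not used here. miR-467f and miR-466i-3p, which are not in that list, are shown as further miRNAs with the same repeat. In the next lines capitals mark the longest stretch of alternating C and A.
miR-574-3p: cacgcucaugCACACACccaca
miR-466q: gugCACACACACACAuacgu
miR-467f: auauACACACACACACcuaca
miR-466i-3p: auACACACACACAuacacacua
The stretch was 7 bases long in miR-574-3p, 12 in miR-466q, 12 in miR-467f and 11 in miR-466i-3p. miR-6973a-3p, the fifth in the list, is rich in C but without the repeat (cacucuaacccuaccuacccau).

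All miRNAs with such a repeat were then taken by their sequence. The likeness of these classes to the arms is no independent observation, since 3 of the 6 UG-repeat miRNAs besides miR-574-5p and 1 of the 4 CA-repeat miRNAs besides miR-574-3p are also in the lists of nearest miRNAs. The letters UGUGUGU were held by 11 of the 1608 mature sequences, or 0.684%, read on the sequence itself and not on its complement. All 4 arrays detected 7 of these 11, and no array detected the other 4. The letters CACACAC were held by 5, or 0.311%, and all 5 were detected on all 4 arrays.

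The 6 UG-repeat miRNAs besides miR-574-5p differed among themselves, with ratios to D0 from 0.891 to 1.83 on D4, from 0.560 to 1.31 on D12 and from 0.392 to 0.897 on D16. The median of their ratios to D0 was 1.47 on D4, 1.17 on D12 and 0.815 on D16, close to 1.40, 1.21 and 0.783 for miR-574-5p. All 6 lay below the median of the 283 miRNAs on each day. miR-3082-5p had a signal of 109 on D0, 164 on D4, 143 on D12 and 91.7 on D16, with D4 the highest day and D16 the lowest, as for miR-574-5p. miR-1187 went from 74.2 to 109, 88.1 and 60.7, and miR-669n from 53.7 to 78.9, 62.0 and 43.7. The lowest were miR-672-5p, at 0.560 times D0 on D12, and miR-466j, at 0.797 times.

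The 4 CA-repeat miRNAs besides miR-574-3p had ratios to D0 with a median of 2.97 on D4, 2.47 on D12 and 1.66 on D16, against 3.05, 2.54 and 1.71 for miR-574-3p. At D12 and D16 all 4 lay above the median of all miRNAs, and on D4 only miR-467f lay below it. The signal of miR-466q was 58.3 on D0, 179 on D4, 150 on D12 and 101 on D16. miR-467f had 99.7, 250.1, 208 and 141, and miR-466i-3p had 83.3, 239, 197 and 133. The highest ratio was that of miR-467g, at 5.36 on D4.

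The values of both repeat classes share the same D0 array. Whether the probes separate miRNAs with like repeats was not tested, and the probe sequences were not used here.

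Markers of other cell types were also brighter after D0. The red blood cell miRNAs (miR-451a, miR-144-3p, miR-144-5p and miR-486a-5p, with 4 of the 5 listed on the array) had a summed signal of 9.40 on D0, where miR-451a alone was detected, 468 on D4, 2528 on D12 and 1649 on D16. Those of leukocytes, endothelium and liver (miR-223-3p, miR-126a-3p and miR-122-5p) were at 0 of 3 detected on D0 and had a summed signal of 30.2 on D4, 130 on D12 and 112 on D16. Unscaled, the sums of these lists were higher on D12 than on D4 while both arms of miR-574 were lower, but both arms were also higher on D12 than on D4 under 4 of the 6 scalings. The markers' part in the values of miR-574 was not tested.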

How the data were processed

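RNA of the exosome fraction was labelled with Cy3 and hybridised to 4 mouse miRNA arrays, 1 each for D0, D4, D12 and D16. Per the methods 2 experiments, and per the labels 3, were combined for a day, so an array is a pool and no test between days was possible. The authors deposited intensity values of Feature Extraction 11.0.1.1, after subtraction of local background and without scaling of one array to another, and flags of 0 or 1 on detection, background, saturation and outliers (other values per the file headers). The total signal of a miRNA is the sum over its detected probes, and 0.1 is listed where none is detected. Positions and sequences of miRNAs come from a RefSeq table of GRCm38.p6, with 1608 of the 1881 array names matched.

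Ratios to D0 of total signals were computed with Python 3.11.15, numpy 2.4.6 and pandas 2.3.3, unscaled because the methods name division by the D0 signal and no scaling. The study's own ratios do not follow from the unscaled signals. For miR-574-5p they lay within the error of the values after either quantile normalization, 0.421, 0.474 and 0.451 on D4, D12 and D16. They also lay within the error of those with the higher percentile of the shared miRNAs, 0.473, 0.520 and 0.491. The study's ratios come from the same arrays, so this error is no tolerance for matching a scaling. Other miRNAs were not compared, and which scaling the study used was not determined. The errors of the ratios computed here combine the software's errors in quadrature. Limits were 2 and 0.5. The hairpin was folded with RNAfold 2.7.2. Normexp correction (limma 3.58.1, R 4.3.3, offset 50) used median spot signals. Position effects were medians over a grid of 6 by 6 blocks. Likeness named 5 miRNAs per arm, each repeat class its 3 brightest members at D0 (including the arm), and the arm pairs the 3 widest in each direction at D12. The percentile and quantile scalings were checked on simulated signals in which whole arrays differed by a single brightness factor. The other steps and the unevenness of the D0 array were not simulated. The members and lists were chosen with earlier results of these data known, and 12 alternatives were tried. The median of matched spots, which is one of them, and the separate view without D0 were added after seeing the data.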

Additional observations from a re-analysis of the deposited data

How the results depend on the processing

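Of the ratios to D0, only those over shared probes and with the position effect removed stayed within 1 error of the unscaled value for both arms on all 3 days. The scalings moved the arms' ratios (5p then 3p, each on D4, D12 and D16) to 0.328, 0.366, 0.346 and 0.717, 0.772, 0.754 with the 75th percentile of the 283 miRNAs shared by the arrays, to 0.680, 0.579, 0.444 and 1.48, 1.22, 0.967 with that of each array's detected miRNAs, to 0.473, 0.520, 0.491 and 1.03, 1.10, 1.07 with the 90th percentile, to 0.421, 0.474, 0.451 and 0.991, 1.05, 1.01 with quantile normalization over all or over the shared miRNAs, and to 0.767, 0.700, 0.615 and 1.67, 1.48, 1.34 with the spike-in RNAs. The 3p arm was thus below D0 on D4 and D12 with the first. With both quantile normalizations it was within 1 error of D0 on D4, at 0.991 ± 0.072. At D4 and D12 the 5p and 3p ratios were 1.08, 0.949 and 2.33, 2.01 for mean spot signals, 1.08, 0.952 and 2.35, 2.01 with the effective spot size undone, and 1.17, 0.950 and 2.21, 1.87 for matched spots. After normexp correction they were 1.08, 0.969 and 1.96, 1.73, with 1.49 for the 3p arm on D16. The quotient of the arms moved by over 1 error with normexp correction, to 0.551 on D4, 0.560 on D12 and 0.556 on D16, and for matched spots on D4, to 0.528. The cause was not tested. Of the 283 miRNAs, 140 were above 2 and 9 below 0.5 on D12 unscaled (94.0% of those past a limit were higher). These numbers were 30 and 103 (22.6%) with the 75th percentile of the 283 miRNAs shared by the arrays, 52 and 45 (53.6%) with that of each array, 43 and 56 (43.4%) with the 90th percentile, 38 and 66 (36.5%) and 48 and 51 (48.5%) with the 2 quantile normalizations, and 72 and 30 (70.6%) with the spike-in RNAs. Among 297 miRNAs detected on D0 and on D12 they were 142 and 10. The counts of arm pairs stayed within 1.5 times under quantile normalization and over shared probes. No paired analysis was possible because each day has 1 array. The number of arrays limits the precision, and the unequal change of the arms rests on the D0 array alone.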
